A study of Homo sapiens with 6 samples.

Results

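The genes described here are 44 effectors and targets of the integrated stress response and the unfolded protein response, out of 60662 genes in the count table. They were found by exact match of the gene symbol, each matched 1 gene, and all 44 passed the low-count filter. They fall into an ATF4 arm of 26 genes and an ATF6/XBP1 arm of 18 genes, a division made from known function and not from these values. The RNA was from the human prostate cancer line DU-145 with a tet-MUCshRNA vector, a doxycycline-inducible short hairpin against the transmembrane mucin MUC1. The 3 DOX-positive cultures received doxycycline (DOX) and the 3 DOX-negative cultures received vehicle, in both cases for 7 days. Both groups were then exposed to interferon-gamma at 10 ng/ml for 24 hours, so all 6 libraries are of interferon-treated cells. The labels do not say whether the line is a clone or a pool. A control hairpin was not analysed here, so an effect of DOX, which is known to inhibit mitochondrial translation, and an effect of the hairpin cannot be told apart.

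The integrated stress response starts when a kinase that senses amino acid shortage, viral RNA, haem deficiency or misfolded protein phosphorylates the initiation factor eIF2. General translation then slows while translation of ATF4 increases, and ATF4 activates genes for amino acid uptake, amino acid synthesis, feedback and, under lasting stress, cell death. The unfolded protein response of the endoplasmic reticulum (ER) shares the kinase PERK (EIF2AK3) with that pathway, and adds the sensors IRE1 (ERN1), which splices XBP1 mRNA, and ATF6, which is released by proteolysis in the Golgi. XBP1 and ATF6 activate ER chaperones, folding enzymes and the machinery that degrades misfolded ER protein. Read counts per gene show neither the translation of ATF4, nor the splicing of XBP1, nor the cleavage of ATF6, so what follows concerns mRNA levels.

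The sequence elements that these factors are known to bind were looked up in RefSeq promoters (build GRCh38.p14) over the 250 bases before each annotated start, on both strands. RefSeq entries were found for 40 of the 44 genes, and NUPR1, PSPH, SHMT2 and ALDH1L2 had no match. The 22 matched ATF4-arm genes have 34 promoter entries and the 18 ATF6/XBP1-arm genes have 22. Percentages below are of promoter entries, while members are counted as genes with a match in any entry. The core of the C/EBP-ATF response element, TGATGNAA, was present in 3.14% of all 35116 promoters, in 4 of 22 matched genes of the ATF4 arm and in 1 of 18 of the ATF6/XBP1 arm. The ER stress element (ERSE), CCAAT and CCACG with any 9 bases between them, was present in 0.074% of all promoters, in 0 of 22 ATF4-arm genes and in 5 of 18 ATF6/XBP1-arm genes. The element ERSE-II, ATTGG and CCACG with any 1 base between them, was present in 0.0513% of promoters, in 0 of 22 and in 3 of 18 genes. The XBP1 core TGACGTGG was present in 0.612% of promoters, in 0 of 22 and in 1 of 18 genes. Counted by promoter entry, TGATGNAA was in 4 of 34 of the ATF4 arm and 1 of 22 of the ATF6/XBP1 arm. ERSE was in 0 of 34 and 5 of 22, ERSE-II in 0 and 3, and the XBP1 core in 0 and 1. A match is a description of these letters and not evidence of binding.

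Elements of the ATF4 kind are shown with the matched letters in capitals, because they let the members that share an element be compared for direction. Each runs 5′ to 3′ on the strand of its gene.
ATF3 (chr1:212565196-212565243, plus strand): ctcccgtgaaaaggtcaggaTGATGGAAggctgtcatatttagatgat
ASNS (chr7:97872464-97872481, minus strand): aggcaTGATGAAActtcc
CHAC1 (chr15:40953257-40953274, plus strand): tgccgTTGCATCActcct
CEBPG (chr19:33374051-33374098, plus strand): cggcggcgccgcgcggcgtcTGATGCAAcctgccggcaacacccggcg
HERPUD1 (chr16:56931946-56931993, plus strand): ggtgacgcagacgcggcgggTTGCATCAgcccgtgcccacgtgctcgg

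Elements of the ATF6 and XBP1 kind are shown for the same purpose, with the matched letters in capitals. HSPA5 and HYOU1 are given over the whole 250 bases before the start, where no annotated exon lies, and the other genes around the match. In HYOU1 the first run of capitals joins the XBP1 core and an ERSE-II, which overlap.
HSPA5 (ERSE, chr9:125241344-125241593, minus strand): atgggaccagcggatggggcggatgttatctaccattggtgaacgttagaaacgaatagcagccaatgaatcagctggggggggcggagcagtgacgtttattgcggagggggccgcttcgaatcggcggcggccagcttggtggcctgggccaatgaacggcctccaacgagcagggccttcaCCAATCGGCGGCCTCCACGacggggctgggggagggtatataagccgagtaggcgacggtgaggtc
HSP90B1 (ERSE, chr12:103930211-103930239, plus strand): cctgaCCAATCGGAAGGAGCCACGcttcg
HSP90B1 (ERSE, chr12:103930316-103930344, plus strand): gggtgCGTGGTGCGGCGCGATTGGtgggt
PDIA6 (ERSE, chr2:10812848-10812876, minus strand): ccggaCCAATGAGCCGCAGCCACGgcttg
CRELD2 (ERSE, chr22:49918534-49918592, plus strand): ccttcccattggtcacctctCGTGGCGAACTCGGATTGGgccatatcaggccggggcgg
XBP1 (ERSE, chr22:28800598-28800626, minus strand): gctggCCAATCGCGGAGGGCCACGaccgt
SDF2L1 (ERSE-II, chr22:21642094-21642144, plus strand): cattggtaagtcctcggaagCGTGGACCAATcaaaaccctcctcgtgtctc
HERPUD1 (ERSE-II, chr16:56932020-56932040, plus strand): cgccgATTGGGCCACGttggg
HYOU1 (ERSE-II and XBP1 core, chr11:119057206-119057455, minus strand): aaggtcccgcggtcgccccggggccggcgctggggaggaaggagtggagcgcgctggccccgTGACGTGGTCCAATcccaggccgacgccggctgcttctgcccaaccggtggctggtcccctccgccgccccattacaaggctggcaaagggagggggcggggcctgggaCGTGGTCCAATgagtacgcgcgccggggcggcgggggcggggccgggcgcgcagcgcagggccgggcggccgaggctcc

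Total counts were 105358357 to 150921436 reads in DOX-positive libraries and 87739734 to 138844816 reads in DOX-negative libraries. MUC1, the target of the hairpin, read 1.53, 1.31 and 1.32 CPM (the usual depth-scaled read count, taken here on library sizes scaled by TMM) in DOX-positive libraries, against 20.4, 21.8 and 22.2 CPM in DOX-negative libraries, so the libraries go with their labels. The epithelial keratin gene KRT18 averaged 393.9 CPM in DOX-positive and 174.6 CPM in DOX-negative libraries, and EPCAM 186.8 and 54.7 CPM. KRT5, a further keratin gene of the same marker list, was at 0 CPM in both groups. Of the fibroblast markers, COL1A1 averaged 4.67 CPM in DOX-positive and 6.48 CPM in DOX-negative libraries, COL1A2 0.0442 and 0.0385 CPM, and PDGFRB 0.0862 and 0.211 CPM. Of the leukocyte markers reported here, CD3E was at 0 and PTPRC averaged 0.0303 CPM in DOX-positive and 0.00728 CPM in DOX-negative libraries, where 3 reads make 0.0204 to 0.0328 CPM. CD14 averaged 0.286 CPM in DOX-positive and 1.02 CPM in DOX-negative libraries and was 3.59-fold lower (edgeR adjusted p = 1.12e-06), and its part in the results was not tested. The 44 genes held 0.669% to 0.676% of all reads in DOX-positive libraries and 0.692% to 0.710% in DOX-negative libraries.

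In DOX-positive cells neither arm moved as a block. In the ATF4 arm 14 of 26 genes were higher and 10 lower at an edgeR adjusted p under 0.05, and in the ATF6/XBP1 arm 7 of 18 were higher and 5 lower. The 3 changes of at least 2-fold (1 or more on the log2 scale) were all in the ATF4 arm: SESN2 rose, while NUPR1 and GDF15 fell. ATF4 itself differed by 0.0085 on the log2 scale (SE 0.030, edgeR adjusted p = 0.827), and XBP1 fell by 0.27 (SE 0.035, edgeR adjusted p = 3.55e-06). Those counts need the background of this comparison, in which 56.5% of all 24694 genes tested were called, 27.6% higher and 28.9% lower. Among the 15009 genes with a mean of at least 1 CPM, a level that all 44 genes reach, 73.3% were called, 41% higher and 32.2% lower. Of the 44 genes 36 were called (81.8%), which is 92.3% of the ATF4 arm and 66.7% of the ATF6/XBP1 arm. The same 36 genes were those whose DOX-positive and DOX-negative values did not overlap, which held for 62.4% of all genes tested and 76.7% of genes with at least 1 CPM. The median absolute log2 fold change was 0.36 in the ATF4 arm and 0.22 in the ATF6/XBP1 arm, beside 0.37 for all genes tested and 0.30 for genes with at least 1 CPM. Called changes of at least 2-fold made up 6.82% of the 44 genes, beside 12.9% of all genes tested and 7.94% of genes with at least 1 CPM. The signed medians were 0.10 for the ATF4 arm and 0.039 for the ATF6/XBP1 arm, beside -0.042 for all genes tested and 0.054 for genes with at least 1 CPM. Both turned negative with library size alone (-0.048 and -0.10), and leaving out 1 library moved that of the ATF6/XBP1 arm between 0.012 (without DOX-negative replicate 2) and 0.086 (without DOX-negative replicate 1). The difference between the arms was not tested.

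**Figure D1:**
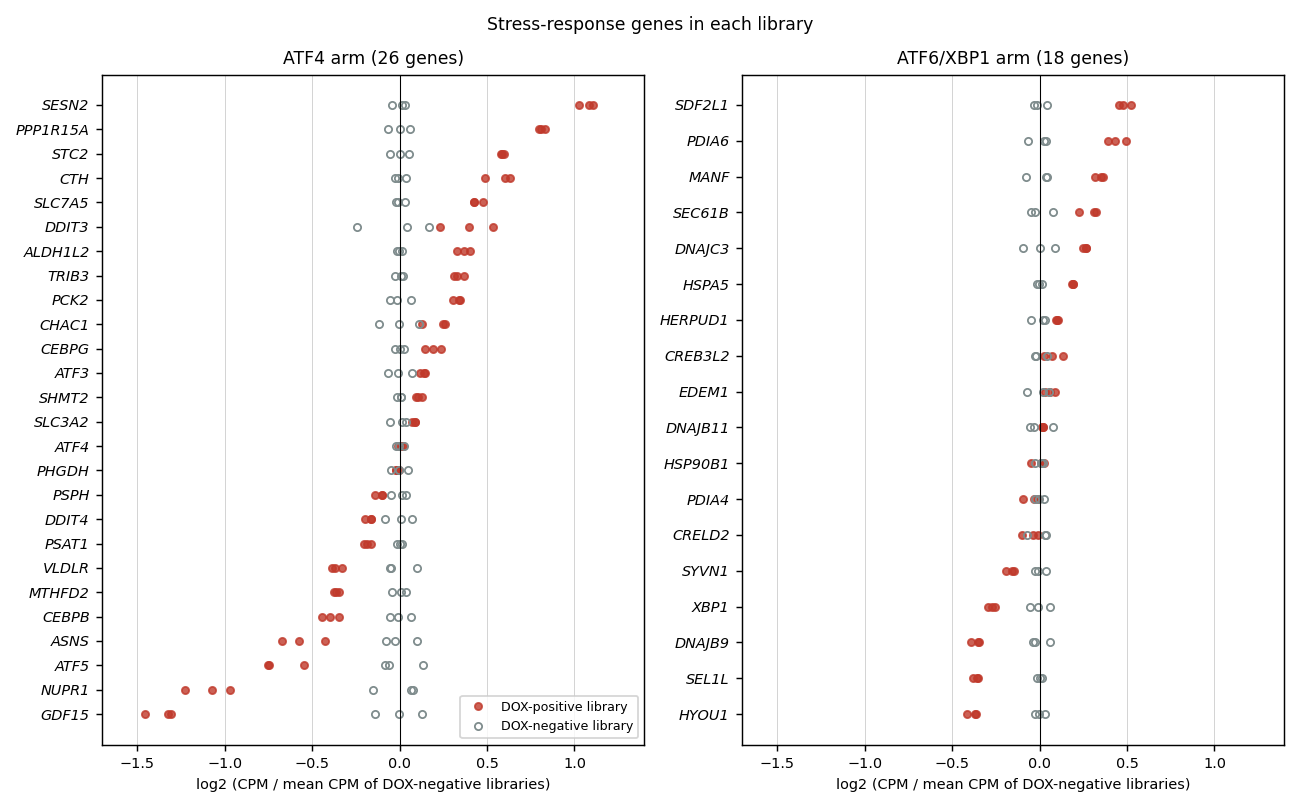
Each line of points is a gene and each point 1 library: filled points are the 3 DOX-positive libraries and open points the 3 DOX-negative libraries, placed by log2 of CPM over the mean CPM of the DOX-negative libraries. In the ATF4 arm (left) values run from GDF15 and NUPR1 at the bottom to SESN2 at the top, and in the ATF6/XBP1 arm (right) from HYOU1 to SDF2L1 over a narrower range.

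Scaling weighs on changes this small. When library size was the sole scaling, the all-gene median shifted by -0.14 on the log2 scale, the ATF4 arm had 8 higher and 12 lower, and the ATF6/XBP1 arm had 5 higher and 10 lower, beside 19% higher and 38.8% lower of all genes tested. With upper-quartile scaling the ATF4 arm had 11 higher and 10 lower and the ATF6/XBP1 arm 6 and 7, beside 24% and 32.6% of all genes tested. All genes tested include genes below 1 CPM. Under the reported scaling 56.5% of all genes tested were called, against 73.3% of genes with at least 1 CPM. The median log2 ratio of the ATF4 arm to its DOX-negative mean was 0.081, 0.096 and 0.11 in the DOX-positive libraries and 0.016, 0.0015 and -0.045 in the DOX-negative libraries, and each difference between a DOX-positive and a DOX-negative library is of about the size of that shift or smaller. Of the 44 genes, 27 kept their direction and their side of the threshold under all 14 alternatives, among them the 3 with at least 2-fold changes.

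The ATF4 arm begins with transcription factors. ATF4 (chr22:39519695-39522685) read 345.9, 353.2 and 350.3 CPM in DOX-positive libraries and 353.3, 343.2 and 346.8 CPM in DOX-negative libraries, and the groups overlapped. With library size alone it was called lower, with a log2 fold change of -0.13 (adjusted p = 3.44e-04, edgeR). CEBPG, a dimer partner of ATF4, rose by 0.19 (SE 0.034, edgeR adjusted p = 1.64e-04), a call lost with library size alone (adjusted p = 0.224). ATF3, an early stress-induced factor, averaged 41.9 ± 0.446 CPM in DOX-positive and 38.1 ± 1.83 CPM in DOX-negative libraries (SD, n = 3 each) and rose by 0.13 on the log2 scale. Its call was lost with upper-quartile scaling (edgeR adjusted p = 0.109) and its sign turned with library size alone (-0.010).

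DDIT3 encodes CHOP, the factor linked to death under lasting stress. It read 10.5, 8.48 and 9.54 CPM in DOX-positive libraries and 7.44, 8.14 and 6.12 CPM in DOX-negative libraries, so the groups lay close together without overlap. The rise was 1.3-fold (log2 fold change 0.38, SE 0.10, edgeR adjusted p = 0.00293), with an adjusted p of 0.0561 for library size alone. DDIT3 (chr12:57516588-57521737, minus strand) overlaps the more abundant MARS on the opposite strand, and the strand setting of the counting is unknown here, so its count is uncertain.

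ATF5, which is translated under stress in the same way as ATF4, fell 1.6-fold (log2 fold change -0.68, SE 0.079, edgeR adjusted p = 1.51e-06). It had 6.95, 6.05 and 6.05 CPM in DOX-positive libraries and 9.75, 9.6 and 11.2 CPM in DOX-negative libraries, with a clear gap between the groups. Its locus also overlaps a more abundant gene on the opposite strand, NUP62. CEBPB, a factor of stress and inflammation, fell by 0.39 on the log2 scale (SE 0.038, edgeR adjusted p = 1.51e-07), to 93.3 ± 3.2 CPM in DOX-positive libraries, against 122.6 ± 5.28 CPM in DOX-negative libraries (SD, n = 3 each).

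NUPR1, a small stress-induced regulator of transcription (chr16:28532708-28539174, minus strand), had 7.21, 6.48 and 7.74 CPM in DOX-positive libraries. In DOX-negative libraries it had 16, 15.9 and 13.6 CPM, well above each DOX-positive value. The fall was 2.13-fold (log2 fold change -1.09, SE 0.076, edgeR adjusted p = 2.74e-09). Of the 7 transcription factor genes, 3 were higher, 3 lower and ATF4 was not called. Among genes with at least 1 CPM, 41% were higher and 32.2% lower.

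**Figure D2:**
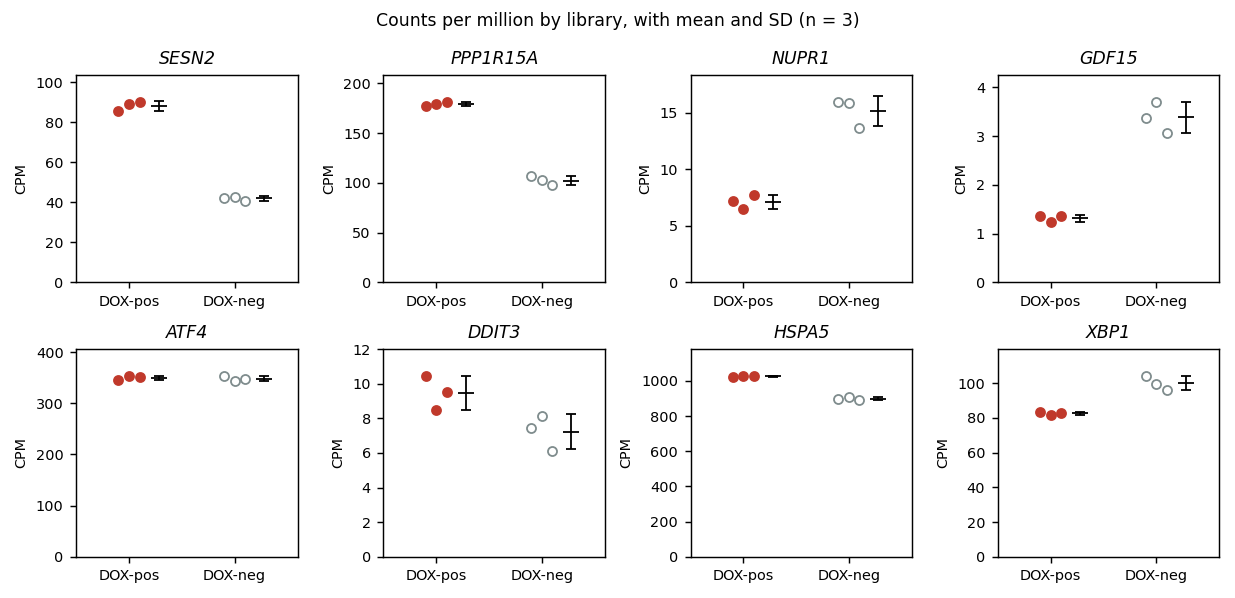
CPM on a linear axis from 0 for 8 genes, with the 3 DOX-positive libraries as filled points left of the 3 DOX-negative libraries as open points, and the mean ± SD beside each group. SESN2 and PPP1R15A lie higher and NUPR1 and GDF15 lower in DOX-positive libraries, ATF4 overlaps between groups, and DDIT3 (1.3-fold), HSPA5 (1.14-fold) and XBP1 (1.21-fold lower) differ by less.

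Of 5 feedback and growth control genes, 4 rose and 1 fell, beside 41% higher and 32.2% lower among genes with at least 1 CPM. SESN2 encodes Sestrin 2, a leucine sensor that restrains the growth kinase mTORC1 and is also a known target of p53 (chr1:28259527-28282491). It read 85.4, 88.9 and 90.3 CPM in DOX-positive libraries and 42.3, 42.8 and 40.7 CPM in DOX-negative libraries. No other of the 44 genes rose as much, with a 2.1-fold increase (log2 fold change 1.07, SE 0.033, edgeR adjusted p = 1.21e-13) that exceeded the fold change of 96.7% of all genes tested.

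PPP1R15A encodes GADD34, which brings a phosphatase to eIF2 and so ends the response (chr19:48872392-48876057). It read 177.5, 179.1 and 181.7 CPM in DOX-positive libraries, against 106.6, 102.6 and 97.6 CPM in DOX-negative libraries. The rise was 1.75-fold (log2 fold change 0.81, SE 0.036, edgeR adjusted p = 1.04e-11). TRIB3, a pseudokinase that holds back ATF4 and CHOP, rose 1.26-fold to 240.2 ± 5.01 CPM in DOX-positive libraries, against 190.1 ± 2.99 CPM in DOX-negative libraries (SD, n = 3 each).

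CHAC1, an enzyme that degrades glutathione, rose by 0.21 on the log2 scale, and the call was lost with library size alone (edgeR adjusted p = 0.282). DDIT4, which encodes REDD1, a further inhibitor of mTORC1, fell by 0.18 (SE 0.039, edgeR adjusted p = 9.80e-04). SESN2 and DDIT4, both brakes on mTORC1, therefore went in opposite directions. With library size alone 3 of these 5 genes were called higher and 1 lower, beside 19% and 38.8% of all genes tested, genes below 1 CPM included.

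Genes of amino acid supply were split. The plasma membrane carrier of large neutral amino acids is a dimer of SLC7A5 and SLC3A2. SLC7A5 read 649.9, 649.9 and 672.5 CPM in DOX-positive libraries and 494, 480.8 and 477.2 CPM in DOX-negative libraries, with no overlap. It rose 1.36-fold (log2 fold change 0.44, SE 0.028, edgeR adjusted p = 9.74e-10). Its partner SLC3A2 rose by 0.083 on the log2 scale (SE 0.033, edgeR adjusted p = 0.045), a call lost under 7 of 14 alternatives and turned in sign under 1 more (-0.061 with library size alone), in a range of adjusted p from 0.00586 to 0.53. It was lost on leaving out any 1 DOX-positive library (edgeR adjusted p = 0.0607, 0.0923 and 0.0792) or DOX-negative replicate 3 (0.127).

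The serine pathway runs from PHGDH through PSAT1 to PSPH. PHGDH averaged 104.3 ± 0.762 CPM in DOX-positive and 105.4 ± 3.47 CPM in DOX-negative libraries (SD, n = 3 each; log2 fold change -0.015, edgeR adjusted p = 0.73), and the groups overlapped, but it was called lower with library size alone (-0.16, adjusted p = 6.39e-04). PSAT1 read 721.6, 742.2 and 730.7 CPM in DOX-positive libraries, against 822.1, 831.5 and 839.6 CPM in DOX-negative libraries, and fell on the log2 scale by 0.18 (SE 0.025, edgeR adjusted p = 1.01e-05). PSPH fell by 0.12 (SE 0.034, edgeR adjusted p = 0.00857), a call lost under 4 of 14 alternatives with adjusted p from 9.79e-06 to 0.0888, among them those without DOX-positive replicate 1 (0.0616) or DOX-negative replicate 1 (0.0888). Its pseudogene PSPHP1 held 15% as many reads as PSPH, so reads may be split between them.

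Serine feeds one-carbon units into the mitochondrial folate pathway, whose enzymes also diverged. MTHFD2 had 207.8, 210.3 and 206.3 CPM in DOX-positive libraries, all below the 269, 273.8 and 259.7 CPM of DOX-negative libraries. It fell by 0.36 (SE 0.032, edgeR adjusted p = 5.66e-08). ALDH1L2, which oxidises the folate-bound unit further, rose by 0.37 (SE 0.032, edgeR adjusted p = 4.06e-08), to 63.7 ± 1.68 CPM in DOX-positive libraries, against 49.5 ± 0.476 CPM in DOX-negative libraries (SD, n = 3 each). ALDH1L2 overlaps C12orf45 on the opposite strand. SHMT2, which releases the one-carbon unit from serine, rose by 0.11, with a sign that turned under library size alone (-0.034).

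ASNS, asparagine synthetase and a widely used ATF4 target, fell. It read 5.55, 5.92 and 6.57 CPM in DOX-positive libraries and 8.37, 8.67 and 9.46 CPM in DOX-negative libraries, a 1.47-fold difference (log2 fold change -0.56, SE 0.079, edgeR adjusted p = 1.41e-05). Per length, ASNS was also scarce, at 1.23 RPKM in DOX-positive and 1.8 RPKM in DOX-negative cells, while PSAT1 stood at 331.6 and 376.7 RPKM, above each other member in both groups. CTH, which makes cysteine by transsulfuration, rose 1.49-fold, with 26, 26.5 and 24 CPM in DOX-positive libraries and 17, 16.8 and 17.5 CPM in DOX-negative libraries. PCK2, the mitochondrial phosphoenolpyruvate carboxykinase, rose 1.26-fold (log2 fold change 0.33, SE 0.034, edgeR adjusted p = 3.84e-07). Of the 11 genes of amino acid supply, 6 were higher, 4 lower and PHGDH was not called. The share among genes with at least 1 CPM was 41% higher and 32.2% lower.

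Secreted and surface products of the arm went both ways. GDF15, a stress cytokine that acts on appetite and is also a p53 target (chr19:18374731-18389176), read 1.37, 1.23 and 1.35 CPM in DOX-positive libraries and 3.38, 3.71 and 3.07 CPM in DOX-negative libraries. The 2.58-fold fall was the largest of the 44 genes (log2 fold change -1.37, SE 0.13, edgeR adjusted p = 9.64e-08), at the lowest level of the 44, with 134 or more reads in each library. STC2, the secreted glycoprotein stanniocalcin 2, rose 1.5-fold, with 244.4, 245.1 and 247.4 CPM in DOX-positive libraries and 157.2, 163.6 and 169.3 CPM in DOX-negative libraries. VLDLR, a lipoprotein receptor, fell 1.28-fold (log2 fold change -0.36, SE 0.044, edgeR adjusted p = 2.28e-06).

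**Figure D3:**
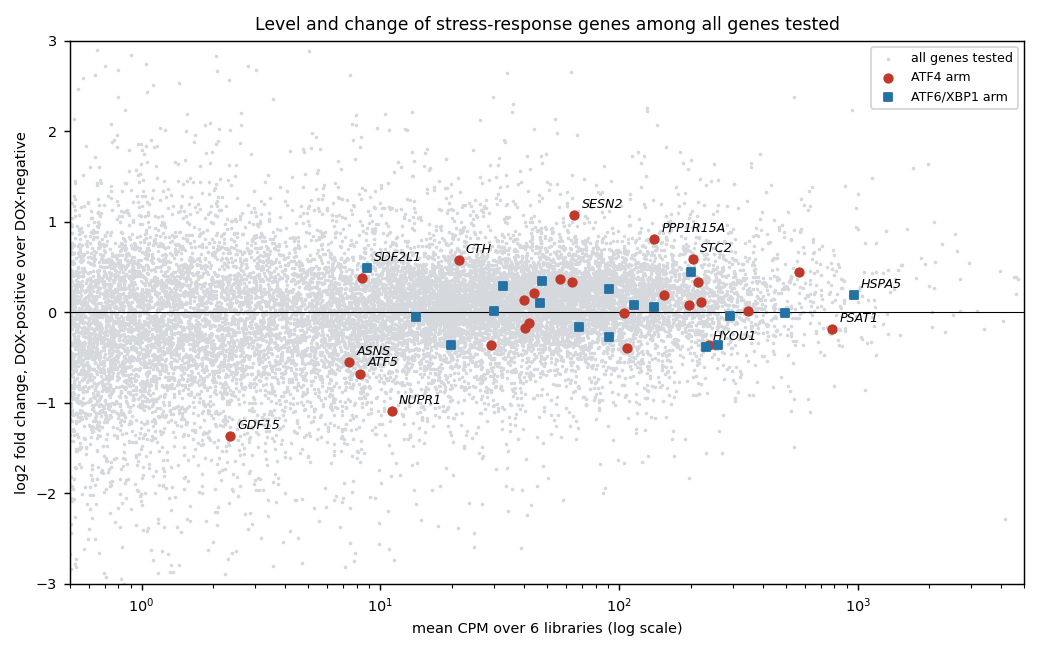
Log2 fold change (DOX-positive over DOX-negative) against mean CPM on a log axis. Grey points are the genes tested that lie within the axes, circles the ATF4 arm and squares the ATF6/XBP1 arm. SESN2 (1.07), NUPR1 (-1.09) and GDF15 (-1.37) are the members farthest from 0, and squares stay between -0.38 and 0.49.

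Changes of the ATF6/XBP1 arm were smaller than 0.5 on the log2 scale in each of its 18 genes, as in 72.1% of genes with at least 1 CPM. With library size alone HYOU1 (-0.53), SEL1L (-0.51) and DNAJB9 (-0.51) passed that size, and SDF2L1 did under 6 other alternatives, reaching 0.53 without DOX-negative replicate 3. HSPA5 encodes BiP, the main ER chaperone, whose rise is the usual sign of an unfolded protein response (chr9:125234853-125241330, minus strand). It read 1023, 1026 and 1028 CPM in DOX-positive libraries, against 898.9, 907.5 and 892 CPM in DOX-negative libraries, with no overlap. The rise was 1.14-fold (log2 fold change 0.19, SE 0.024, edgeR adjusted p = 3.08e-06), and with library size alone the log2 fold change was 0.046 and the gene was not called (edgeR adjusted p = 0.0616). HSP90B1, which encodes the ER chaperone GRP94, averaged 495.9 ± 12.8 CPM in DOX-positive and 497.3 ± 8.63 CPM in DOX-negative libraries (SD, n = 3 each; log2 fold change -0.0041, edgeR adjusted p = 0.919), and was called lower with library size alone (-0.15) and upper-quartile scaling (-0.064).

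Chaperones and their helpers went both ways. SDF2L1, an ER-resident helper of BiP, had 10, 10.5 and 10.2 CPM in DOX-positive libraries and 7.25, 7.18 and 7.54 CPM in DOX-negative libraries. Its 1.4-fold rise was the largest of the arm (log2 fold change 0.49, SE 0.062, edgeR adjusted p = 4.31e-06). PDIA6, a disulfide isomerase, rose 1.36-fold, to 231.4 ± 8.24 CPM in DOX-positive libraries, against 170.5 ± 6.58 CPM in DOX-negative libraries (SD, n = 3 each). MANF, a secreted regulator of BiP, rose 1.27-fold, and DNAJC3, a co-chaperone, rose 1.2-fold.

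HYOU1, which encodes GRP170, the nucleotide exchange factor of BiP, fell. It read 202.2, 195.7 and 203 CPM in DOX-positive libraries, against 266.7, 260.6 and 256.8 CPM in DOX-negative libraries (log2 fold change -0.38, SE 0.032, edgeR adjusted p = 2.65e-08). DNAJB9, a co-chaperone that restrains IRE1, fell by 0.36 (SE 0.044, edgeR adjusted p = 2.63e-06), although its count is uncertain because the more abundant PNPLA8 and THAP5 overlap it on the opposite strand. DNAJB11, PDIA4 and CRELD2, also helpers or enzymes of folding, had log2 fold changes of 0.018, -0.045 and -0.050 and were not called. With library size alone they were called lower, at -0.13, -0.19 and -0.19, and PDIA4 was also called lower with upper-quartile scaling (-0.10, edgeR adjusted p = 0.00455) and with at least 1 CPM in 3 libraries (-0.082). The counts of DNAJB11 and CRELD2 are uncertain too. On the opposite strand TBCCD1 overlaps DNAJB11 and ALG12 overlaps CRELD2, with 70.9% and 52.1% as many reads. Of the 11 chaperone and folding genes 5 were higher, 2 lower and 4 not called. Beside them stand 41% higher and 32.2% lower among genes with at least 1 CPM.

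ER-associated degradation, which returns misfolded proteins to the cytosol, was represented by 4 genes. SEL1L, the scaffold of the HRD1 ubiquitin ligase, fell by 0.36 (SE 0.030, edgeR adjusted p = 2.50e-08), with 225.5, 228.9 and 229.5 CPM in DOX-positive libraries and 296.6, 289.9 and 293.6 CPM in DOX-negative libraries. SYVN1, which encodes HRD1 itself, fell by 0.17 (SE 0.031, edgeR adjusted p = 2.37e-04), with an uncertain count because the more abundant FAU overlaps it. HERPUD1, a further member of that complex, rose by 0.10 (SE 0.033, edgeR adjusted p = 0.0175), a call lost under 3 of 14 alternatives and turned in sign under 1 more (-0.044 with library size alone), with adjusted p from 0.0071 to 0.30. Without DOX-negative replicate 3 the edgeR adjusted p of HERPUD1 was 0.0648. EDEM1, a lectin that hands over glycoproteins, was not called (log2 fold change 0.059, edgeR adjusted p = 0.186), but was called higher without DOX-negative replicate 3 (adjusted p = 0.0469) and lower with library size alone (-0.084).

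Among the remaining genes, XBP1 read 83.6, 81.5 and 82.6 CPM in DOX-positive libraries, each below the 104.2, 99.4 and 96.2 CPM of DOX-negative libraries. It encodes the IRE1-dependent transcription factor (chr22:28794555-28800597, minus strand) and fell 1.21-fold. SEC61B, a subunit of the channel through which proteins enter the ER, rose 1.22-fold. CREB3L2, a membrane-bound factor of secretory cells, was not called (log2 fold change 0.077, edgeR adjusted p = 0.0812), but was called higher under 4 of 14 alternatives, with adjusted p from 0.0204 to 0.676, among them those without DOX-positive replicate 2 (0.0423) or DOX-negative replicate 3 (0.0204).

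Genes that share a promoter element did not all share a direction. Of the ATF4-arm genes printed above with the ATF4-type core, CEBPG, CHAC1 and ATF3 were higher and ASNS lower, with log2 fold changes of 0.19, 0.21, 0.13 and -0.56. Among genes with the ER stress element, PDIA6 (0.44) and HSPA5 (0.19) were higher, XBP1 (-0.27) lower, and HSP90B1 (-0.0041) and CRELD2 (-0.050) not called. Of the 3 with ERSE-II, SDF2L1 was higher at 0.49 and HYOU1 lower at -0.38, and HERPUD1, which carries both an ATF4-type core and an ERSE-II, had 0.10. The calls of CEBPG, CHAC1, ATF3, HSPA5 and HERPUD1 were lost with library size alone.

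Genes upstream of the 44 gave a mixed picture as well. Under the reported scaling, the counts of this and the following lists stand beside 41% higher and 32.2% lower among genes with at least 1 CPM. Counts with library size alone stand beside 19% higher and 38.8% lower of all genes tested. Those with upper-quartile scaling stand beside 24% and 32.6%, and those after the filter of at least 1 CPM in 3 libraries beside 37.6% and 36.3%. The shares for library size alone and upper-quartile scaling include genes below 1 CPM. They are therefore not of the same kind as the 41% and 32.2%, and shares of genes with at least 1 CPM were not taken under those scalings. Of 15 genes for the eIF2 kinases, eIF2, its exchange factor eIF2B and 3 related factors, 9 were higher and 4 lower (median log2 fold change 0.16), or 7 and 5 with upper-quartile scaling and 5 and 5 with library size alone. EIF2AK4, which encodes the amino acid sensor GCN2, rose 1.64-fold, to 256.6 ± 3.56 CPM in DOX-positive libraries, against 156.5 ± 0.504 CPM in DOX-negative libraries (SD, n = 3 each). EIF2AK2, which encodes the interferon-inducible RNA sensor PKR, fell 1.4-fold, to 338.1 ± 5.57 CPM in DOX-positive libraries, against 473.5 ± 16.4 CPM in DOX-negative libraries. EIF2AK1, the haem-regulated kinase, had a log2 fold change of 0.20 and EIF2AK3, which encodes PERK, 0.16, and both calls were lost with library size alone (edgeR adjusted p = 0.076 and 0.802). The EIF2AK3 call was also lost with upper-quartile scaling (edgeR adjusted p = 0.161). It was lost too without DOX-positive replicate 3 (edgeR adjusted p = 0.0987) or DOX-negative replicate 1 (0.0728). EIF2S1, the subunit that these kinases phosphorylate, rose 1.27-fold.

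Of 9 tested genes for ER stress sensors, their proteases and related factors, 5 were higher and 4 lower, or 4 and 4 with library size alone. MBTPS1 encodes the Golgi protease that makes the first of the cuts in ATF6. It averaged 82.2 ± 2.23 CPM in DOX-positive and 178.5 ± 2.16 CPM in DOX-negative libraries (SD, n = 3 each), a 2.17-fold fall (log2 fold change -1.12, SE 0.033, edgeR adjusted p = 7.48e-14). MBTPS2, the protease of the following cleavage, fell 1.6-fold to 33 ± 0.896 CPM in DOX-positive libraries, against 52.8 ± 2.04 CPM in DOX-negative libraries. ATF6 and ERN1, the sensors themselves, had log2 fold changes of 0.20 and 0.23, and the ATF6 call was lost with library size alone (edgeR adjusted p = 0.115). CREB3, a related membrane-bound factor, rose 1.59-fold, and its relative CREB3L1, named after its value was seen, fell 7.37-fold to 0.164 ± 0.0143 CPM in DOX-positive libraries, against 1.23 ± 0.116 CPM in DOX-negative libraries.

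Other branches of the ATF4 program included the cytosolic aminoacyl-tRNA synthetases, of which 15 of 18 were higher and 3 lower (median log2 fold change 0.28), or 11 and 3 with library size alone. EPRS rose 1.4-fold, and the 3 that fell were WARS, DARS and IARS, IARS being named after its value was seen. WARS, which interferon-gamma induces, had 1413 ± 47.9 CPM in DOX-positive and 6916 ± 291.8 CPM in DOX-negative libraries, and DARS fell 2.65-fold, to 36.2 ± 1.12 CPM in DOX-positive libraries, against 95.9 ± 3.33 CPM in DOX-negative libraries (SD, n = 3 each). Of 20 further genes of amino acid transport and synthesis 12 were higher and 6 lower, or 6 and 8 with library size alone. Among them the glutamine carrier SLC38A2 rose 1.44-fold, while SLC7A11, the cystine carrier that NRF2 also controls, fell 1.48-fold.

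The wider ER machinery had more genes higher than lower in degradation and translocation, while folding depended on the scaling. Of 20 further degradation genes 15 were higher and 2 lower (median log2 fold change 0.23), or 13 and 4 with upper-quartile scaling, 14 and 4 after the filter of at least 1 CPM in 3 libraries, and 10 and 4 with library size alone. EDEM2 rose 1.64-fold, and NPLOC4, an adaptor of the extraction ATPase VCP, fell 1.97-fold. Of 30 translocon, signal peptidase and vesicle coat genes 20 were higher and 6 lower, or 14 and 9 with library size alone. SRPRB, a subunit of the receptor for the signal recognition particle, rose 1.61-fold, while SRP9, of that particle, fell 2.44-fold and the translocon-associated SSR1 fell 1.72-fold. Of 23 further folding and redox genes 10 were higher and 7 lower. With library size alone, which shifts every gene, they were 7 and 10, beside 19% higher and 38.8% lower of all genes tested. The oxidase ERO1A rose 1.87-fold and the isomerase PDIA5 1.71-fold, and the chaperone HSPA13 fell 1.87-fold.

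**Figure D4:**
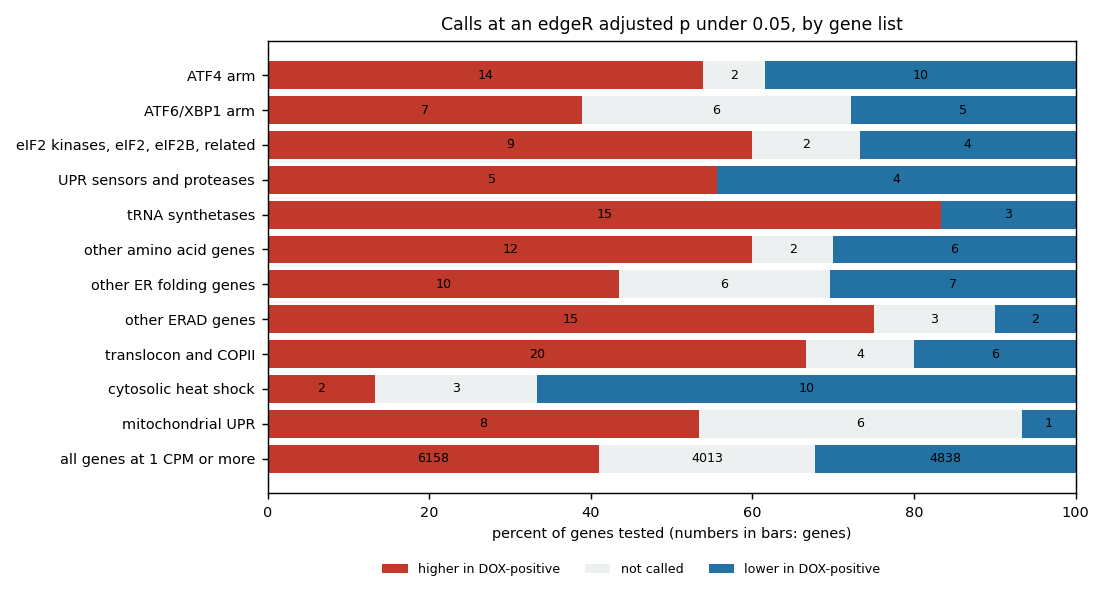
Percent of genes tested that were called higher (left), not called (middle) or called lower (right) in DOX-positive cells at an edgeR adjusted p under 0.05, by gene list, with the numbers of genes in the bars. The bottom bar gives all genes with a mean of at least 1 CPM, of which 41% were higher and 32.2% lower under the reported scaling.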

How the data were processed

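The deposited values are raw read counts, whole numbers per gene and culture, beside a gene length. Libraries were made with the TruSeq Stranded mRNA kit, per the labels' protocols. Build GRCh38.p7 and the tools STAR 2.7.9a, CASAVA 1.8.2 and DESeq2 1.24.0 appear, with no role or order, in the submitters' processing notes. The sources used here give no counting tool, annotation or strand setting.

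Testing used edgeR 4.0.16 (R 4.3.3): a quasi-likelihood fit of group, the filterByExpr filter (minimum count 10, minimum total 15), TMM scaling and Benjamini-Hochberg adjustment over 24694 genes at 0.05. Fold changes are DOX-positive over DOX-negative, and each standard error is the fold change's size on the log2 scale over the root of F. RPKM divides CPM by the deposited length in kilobases. Gene positions are from GENCODE 29 (GRCh38), given without strand for plus-strand genes, and promoters are from RefSeq (GRCh38.p14). The scripts were tested on simulated data. Figures used matplotlib 3.10.9.

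Alternatives changed the scaling (size factors of DESeq2, upper quartile, library size alone), the filter (none, or at least 1 CPM in 3 libraries), the tool (DESeq2 1.42.0, limma-voom of limma 3.58.1) or the design (replicate number as block, 1 library removed). The genes and lists were chosen with earlier results of these data known. All 44 genes are named, with MUC1, 6 stress sensors and the 3 called genes of smallest p in each of 9 wider lists, except for genes that are not reported here. No pair of replicates matched within sampling noise (chi-square per degree of freedom 6.4 to 20.8). The labels speak of triplicate cultures and nothing more, so the p-values rest on the spread among them, which may be technical. The floor of 3 reads covers counting error only.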

Additional observations from a re-analysis of the deposited data

How the results depend on the processing

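Across alternatives MUC1 ranged from -4.10 to -3.90 (log2) and was always called. Library size alone left 8 genes of the ATF4 arm called higher and put 10 of the ATF6/XBP1 arm lower. The median log2 fold changes of the ATF4 and ATF6/XBP1 arms were -0.048 and -0.10 with library size alone, 0.036 and -0.021 with upper-quartile scaling, 0.12 and 0.066 with DESeq2 size factors and likewise with the DESeq2 Wald test, 0.12 and 0.058 with no filter, and 0.059 and 0.0020 with at least 1 CPM in 3 libraries. With each library left out in turn they ranged from 0.10 to 0.13 and from 0.012 to 0.086. Signs that turned with library size alone were those of ATF4 (-0.13), ATF3 (-0.010), SHMT2 (-0.034), SLC3A2 (-0.061), DNAJB11 (-0.13), HERPUD1 (-0.044), EDEM1 (-0.084) and CREB3L2 (-0.066). By construction this alternative shifts every gene, the median by -0.14. Over 616 results for the 44 genes, 577 gave the same call, 20 lost a call, 12 gained one and 7 turned in sign with a call on one side. Among the 577, 17 values that were called in neither case had the opposite sign, and 10 of the 44 genes turned in sign under some alternative.

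Same-numbered libraries did not deviate together (correlations -0.067, -0.025 and 0.0098), so no pairing by number was seen. With so few libraries, these values cannot show that the cultures were unpaired. With the replicate number as a block 13499 genes were called, against 13957, and the ATF4 arm had 13 higher and 10 lower, SLC3A2 losing its call (edgeR adjusted p = 0.0568). With each library left out in turn, 12806 to 13413 genes were called, 13 to 14 and 9 to 10 of the ATF4 arm higher and lower, and 7 to 8 and 5 of the ATF6/XBP1 arm.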

Other observations

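Genes of cytosolic heat shock and of the mitochondrial unfolded protein response were counted as well. Under the reported scaling their counts stand beside 41% higher and 32.2% lower among genes with at least 1 CPM. With library size alone the share was 19% higher and 38.8% lower of all genes tested, which include genes below 1 CPM. Of 15 tested genes for cytosolic heat shock proteins and their regulators, 2 were higher and 10 lower in DOX-positive cells (median log2 fold change -0.19), and 2 were higher and 8 to 13 lower under the alternatives. HSPA8, the constitutive cytosolic HSP70, named after its value was seen, fell 1.28-fold to 732 ± 20.7 CPM in DOX-positive libraries, against 938.2 ± 45.1 CPM in DOX-negative libraries (SD, n = 3 each). HSP90AB1, the constitutive cytosolic HSP90, fell 1.19-fold and DNAJB4, a co-chaperone, fell 1.46-fold. BAG3, a partner of HSP70 in selective autophagy, rose 1.33-fold.

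Genes of the mitochondrial unfolded protein response were higher in 8 of 15 cases and lower in 1 (median log2 fold change 0.14), or 3 and 5 with library size alone. The 60% called in either direction is below the 73.3% of genes with at least 1 CPM. The protease subunit CLPP rose 1.32-fold, the import channel gene TIMM23 1.2-fold and the protease SPG7 1.23-fold. The matrix chaperone HSPD1, also named after its value was seen, had a log2 fold change of 0.017 (edgeR adjusted p = 0.68). The mitochondrial share of reads was 5.49% to 6.21% in DOX-positive libraries and 4.35% to 5.67% in DOX-negative libraries, and its part in these values was not tested.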
